A study of Homo sapiens with 12 samples.

Results

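The untreated transcriptome of Caco-2 spheroids was described from the 3 control libraries, of the 12 libraries in the series. Caco-2 is an established cell line from a human colorectal adenocarcinoma. The cells, at passage 26, were embedded in Matrigel, a basement membrane gel, and formed spheroids over 5 days in DMEM with 20% fetal bovine serum, antibiotics and non-essential amino acids, without a change of medium. The control spheroids then received carrier fluid for 4 h, and bulk RNA was sequenced. The other libraries, from the same cells exposed to methotrexate, to lactoferrin or to both for the same time, were not compared here. The samples are 1 cell line in 1 culture form, and the labels do not say whether the 3 control libraries came from separate cultures, so the spread between them may be technical.

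Caco-2 cells are used as a model of the absorptive enterocyte, the cell that lines the gut, digests nutrients at its microvilli and packs absorbed fat into lipoprotein particles. In flat culture they are known to polarise and to turn on small intestinal enzymes although the tumour arose in the large bowel, and part of this programme is known from the fetal rather than the adult gut. As tumour cells they also divide and carry features of the intestinal crypt, where Wnt signals maintain stem cells.

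The 3 libraries held 19892094, 23859094 and 23338317 counts. Levels are given as TPM, the count per kilobase of the gene length listed in the table, scaled so that each library sums to 1000000, with the mean ± SD of the 3 libraries. Where 3 levels follow each other, they belong to controls 1, 2 and 3 in that order, and ranks are by mean TPM among protein-coding genes of the nuclear genome. At these depths a gene of 2000 bases at 1 TPM corresponds to 15.4 to 18.3 counts, and a count of 0 allows up to 3 counts, or 0.126 to 0.151 CPM. Such floors cover counting error only. Of 48162 genes in the table, 22469 had no count in any control library, and 13344 reached 1 TPM in all 3. Of the 20312 protein-coding genes, 11649 (57.4%) did so, and the median over all protein-coding genes was 4.21 TPM.

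The 5 genes that mark the line were all abundant. EPCAM, an epithelial adhesion protein, had 1080, 1011 and 979 TPM. CDH1, which encodes E-cadherin of the adherens junction, had 655, 676 and 635 TPM, and HNF4A, a nuclear receptor of the gut and liver epithelium, had 537, 589 and 580 TPM. CDH17, the liver-intestine cadherin, had 430, 392 and 431 TPM. VIL1, the microvillus protein villin, had 339, 342 and 339 TPM. The libraries lay close together for each of these genes, with coefficients of variation from 0.582% for VIL1 to 5.31% for CDH17, and the lowest of the 5 ranked 409 among the coding genes. All markers of the label were therefore present at high levels.

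Markers of other cell types were mostly near 0. None of 6 endothelial genes reached 1 TPM in all 3 libraries, and their summed level ran from 0.762 to 1.15 TPM. Of 10 immune and blood genes, 1 did, CD14, a co-receptor for bacterial lipopolysaccharide, at 17.5, 19.5 and 20.5 TPM. PTPRC, the pan-leukocyte marker CD45, had 5, 2 and 2 counts. Among 12 fibroblast genes, 4 reached 1 TPM in all 3: COL1A1 at 22.3 ± 3.25 TPM, PDGFRB at 19.1 ± 0.995, LUM at 5.60 ± 0.967 and PDGFRA at 3.42 ± 0.420 TPM. VIM, the intermediate filament of mesenchymal cells, had 15, 16 and 13 counts (0.642 ± 0.0979 TPM), and DPT had no count. The samples are 1 cell line, and in bulk RNA a gene active in few of its cells and a gene low in all of them cannot be told apart.

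Transcripts were concentrated in few genes. The 10 most abundant genes took 7.16, 7.90 and 9.23% of TPM and the 100 most abundant 28.5, 28.8 and 29.6%. The 109 genes at 1000 TPM or more in every library held 29.9% of TPM, and the 8512 genes at 10 TPM or more held 97.2%. Control 3 had the largest share in its top genes, and it also had the largest mitochondrial share.

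The 13 protein genes of the mitochondrial genome, which encode core subunits of the respiratory chain, took 5.51, 6.72 and 8.69% of TPM in the 3 libraries. MT-CO1, a catalytic subunit of cytochrome c oxidase, had the highest mean TPM of all genes, with 9520, 12796 and 17798 TPM. MT-CO3 of the same enzyme had 11054, 12582 and 15278 TPM and was above MT-CO1 in control 1, and MT-CO2 had 5748, 7233 and 10203 TPM. Control 3 was highest and control 1 lowest for all 3 genes. MT-ND4L went in the opposite order, with 2702, 2444 and 2054 TPM. MT-ND4L, a subunit of complex I, is shorter in the table than these 3 genes, and its end overlaps the start of MT-ND4.

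The nuclear genes with the highest levels belonged to translation, lipid transport and iron storage. EEF1A1, the elongation factor that carries aminoacyl-tRNA to the ribosome, ranked first with 7764, 7240 and 7275 TPM, and without scaling by length it exceeded MT-CO1, with a mean of 12725 against 7961 CPM. APOE, a lipid-carrying apolipoprotein, ranked second with 7082, 7358 and 5500 TPM, and FTL, the light chain of the iron store ferritin, had 6338, 6465 and 6737 TPM. APOA1, the main protein of high-density lipoprotein, ranked 6 with 5935, 5966 and 4916 TPM. Control 3 was the lowest library for both apolipoproteins and the highest for FTL. ACTB, cytoplasmic actin, was in the top 10 at 4122 ± 361 TPM, and EEF2, the translocation factor of the ribosome, ranked 15 at 3547 ± 157 TPM.

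Of the 30 most abundant nuclear coding genes, 18 were cytosolic ribosomal proteins and 3 were liver-type secreted proteins, APOA1, AHSG and FGG. AHSG, the plasma protein fetuin-A, had 2964, 3024 and 2650 TPM. FGG, the gamma chain of fibrinogen, had 2767, 2673 and 2754 TPM. The libraries overlapped closely for FGG, and control 3 was lowest for AHSG. The others in the top 30 were TPT1, a growth-associated protein, TMSB10, which binds actin monomers, PSAP, the precursor of lysosomal saposins, and GSTP1, a glutathione transferase that is known from many carcinomas, at 2319 ± 124 TPM. Among the first 100 were 46 ribosomal proteins, 6 liver-type secreted proteins, 3 nuclear subunits of oxidative phosphorylation and 3 glycolytic enzymes.

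**Figure D1:**
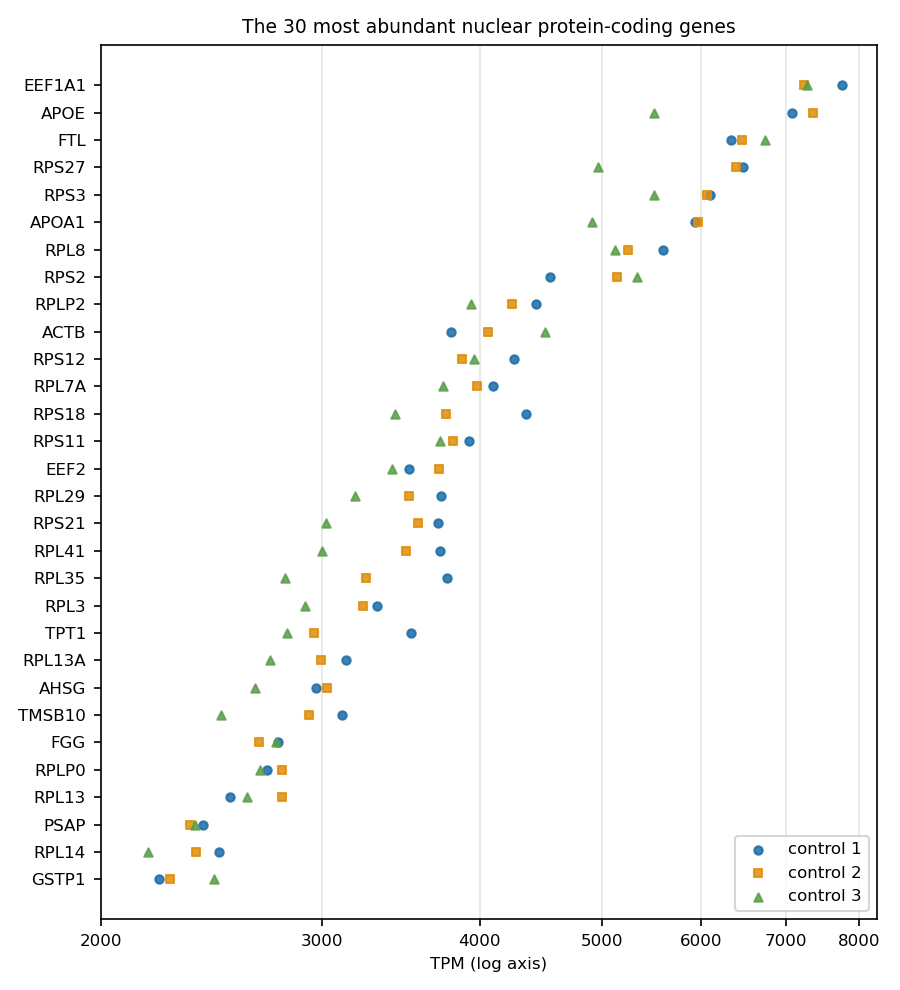
TPM of the 30 most abundant protein-coding genes of the nuclear genome in each control library, on a log axis, ordered by mean. EEF1A1, APOE and FTL lead, and the points of the 3 libraries of a gene lie within a factor of 1.34 for each of the first 8 genes, with control 3 the lowest library for APOE, RPS27 and APOA1.

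Ribosomal proteins form the protein part of the ribosome, and their messages are known to carry a pyrimidine tract at the very 5′ end through which their translation is controlled. The 90 genes of this family took 13.5 ± 0.984% of TPM, with a sum of 144411, 135578 and 124758 TPM, and 83 of them reached 1 TPM in all 3 libraries. Their median was 1096 TPM. RPS27 led with 6478, 6394 and 4964 TPM and RPS3 followed with 6094, 6058 and 5502 TPM. Control 1 was highest and control 3 lowest for the family sum. The start regions of the leading genes are shown because the family dominates the top of the list and shares a sequence feature there. They were taken from RefSeq (GRCh38.p14), with 60 bases before and 20 after the first listed start, and capitals mark CTTTC or CTTTT or CTCTT within 5 bases before to 10 after it. The windows are chr1:153990702-153990781 (plus strand) for RPS27, chr11:75399458-75399537 (plus) for RPS3, chr11:809907-809986 (plus) for RPLP2, chr6:132814509-132814588 (plus) for RPS12, chr19:49487548-49487627 (plus) for RPL13A and chr6:73521013-73521092 (minus) for EEF1A1.
RPS27: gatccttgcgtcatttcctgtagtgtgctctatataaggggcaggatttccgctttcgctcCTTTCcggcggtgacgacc
RPS3: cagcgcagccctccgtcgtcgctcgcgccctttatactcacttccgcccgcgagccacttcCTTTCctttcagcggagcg
RPLP2: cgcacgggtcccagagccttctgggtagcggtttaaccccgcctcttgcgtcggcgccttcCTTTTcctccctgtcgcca
RPS12: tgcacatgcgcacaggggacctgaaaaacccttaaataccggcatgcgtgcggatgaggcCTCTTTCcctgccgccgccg
RPL13A: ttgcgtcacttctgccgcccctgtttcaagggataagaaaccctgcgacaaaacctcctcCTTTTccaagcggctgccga
EEF1A1: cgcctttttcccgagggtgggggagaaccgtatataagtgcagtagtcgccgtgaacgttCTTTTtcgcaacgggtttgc

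In RPS12, CTCTT and CTTTC overlap. One of these short runs lay in that window on the gene's own strand in 41 of the 70 ribosomal protein genes with a sequence (58.6%). Over all 15135 nuclear coding genes with a sequence, ribosomal proteins included, it was 830 (5.48%). On the other strand the shares were 1.43% for the ribosomal proteins and 2.29% for all genes. It was also in 4 of 25 liver-type genes (16%), in 1 of 22 proliferation genes (4.55%) and in 0 of 20 junction genes. TATAAA at 40 to 19 bases before the start, on the gene's own strand, was in 4 of the 70 ribosomal protein genes (5.71%) and in 3 of 25 liver-type genes (12%), against 3.54% of all. A match is a description of the letters in this window.

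Several proteins that the liver secretes into plasma are also made by the yolk sac and the embryonic gut. Of 33 such genes, 29 reached 1 TPM in all 3 libraries, the median was 166 TPM, and the list took 2.06 ± 0.125% of TPM. AFP, alpha-fetoprotein, the main plasma protein of the fetus, had 1660, 1624 and 1264 TPM, and ALB, albumin, its adult counterpart, had 1340, 1343 and 1192 TPM. The AFP to ALB ratio was 1.17 ± 0.0958, with AFP the higher in each library and control 3 the lowest for both. Both genes lie side by side on chromosome 4, 9.73 kb apart in the table's hg19 coordinates. The start of AFP (GRCh38.p14, chr4:73436161-73436240, plus strand) is shown because it holds TATAAA, in capitals, 29 bases before the start.
AFP: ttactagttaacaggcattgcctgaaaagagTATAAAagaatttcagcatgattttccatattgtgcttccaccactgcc

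The 3 fibrinogen chains, which the finished protein holds in equal number, were unequal as transcripts. FGG averaged 2731 ± 51.1 TPM, FGB 435 ± 14.1 TPM and FGA 218 ± 15.4 TPM, so FGG stood 6.28 ± 0.217 times over FGB and 12.6 ± 0.721 times over FGA. The order was the same in each library. SERPINA1, the elastase inhibitor alpha-1-antitrypsin, had 1085 ± 76.6 TPM, VTN, the adhesive plasma protein vitronectin, 927 ± 50.6 TPM, and RBP4, the carrier of retinol in blood, 893 ± 79.4 TPM. The identifier of VTN bears the symbol SEBOX in the table. Also present were F2 (prothrombin) at 516 ± 25.9 TPM, TTR (transthyretin) at 493 ± 36.4 TPM and C3 (complement) at 431 ± 17.6 TPM. At the low end, PLG, the precursor of plasmin, had no count, and ITIH1, which binds hyaluronan, had 0.504 ± 0.0188 TPM.

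Genes of the mature hepatocyte were mostly scarce beside these secreted proteins. Of 12 such genes, 4 reached 1 TPM in all 3 libraries and the median was 0.536 TPM. ASGR2 and ASGR1, the subunits of the hepatic receptor for desialylated glycoproteins, had 127 ± 3.36 and 54.2 ± 4.56 TPM, and CPS1, the entry enzyme of the urea cycle, which the small intestine also makes, had 62.7 ± 5.40 TPM. CYP2E1 had 1, 0 and 0 counts and TAT, tyrosine aminotransferase, 1, 0 and 1. G6PC, the last enzyme of glucose release, had 1, 5 and 4 counts.

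Oncofetal genes are active in the embryo, silent in most adult tissues and known to return in tumours. Of 20, 15 reached 1 TPM in all 3 libraries, with a median of 27.1 TPM. IGF2, a fetal growth factor, had 1694, 1649 and 1718 TPM, and GPC3, the cell-surface proteoglycan glypican-3, had 1066, 1043 and 860 TPM. The IGF2 locus shares its strand with the read-through gene INS-IGF2 in the table. H19, the imprinted non-coding neighbour of IGF2, had 30, 20 and 29 counts (1.32 ± 0.369 TPM), and IGF2 stood 1350 ± 385 times above it. The RNA-binding proteins that bind the IGF2 message were all present, IGF2BP1 at 262 ± 4.87 TPM, IGF2BP2 at 94.5 ± 6.75 and IGF2BP3 at 75.0 ± 5.36 TPM.

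HMGA1, a chromatin protein of the embryo, had 539 ± 59.2 TPM and its relative HMGA2 53.9 ± 5.63 TPM, which was outside the highest 8 of the list and was named for its role after its level was seen. The same holds for LIN28B, which blocks maturation of let-7 microRNAs, at 29.2, 24.7 and 25.5 TPM. Its paralog LIN28A had 2, 1 and 0 counts. DLK1 had no count in any library. The list was therefore not uniform in level, and LIN28B and LIN28A differed widely. In a list of 10 genes known from fetal intestinal progenitors of the mouse, 5 reached 1 TPM in all 3 libraries. LY6E had 623 ± 65.6 TPM and CLU 136 ± 8.73 TPM, whereas IL33 had no count and ANXA1, which is used to mark the fetal-like state, had 0.594 ± 0.294 TPM.

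**Figure D2:**
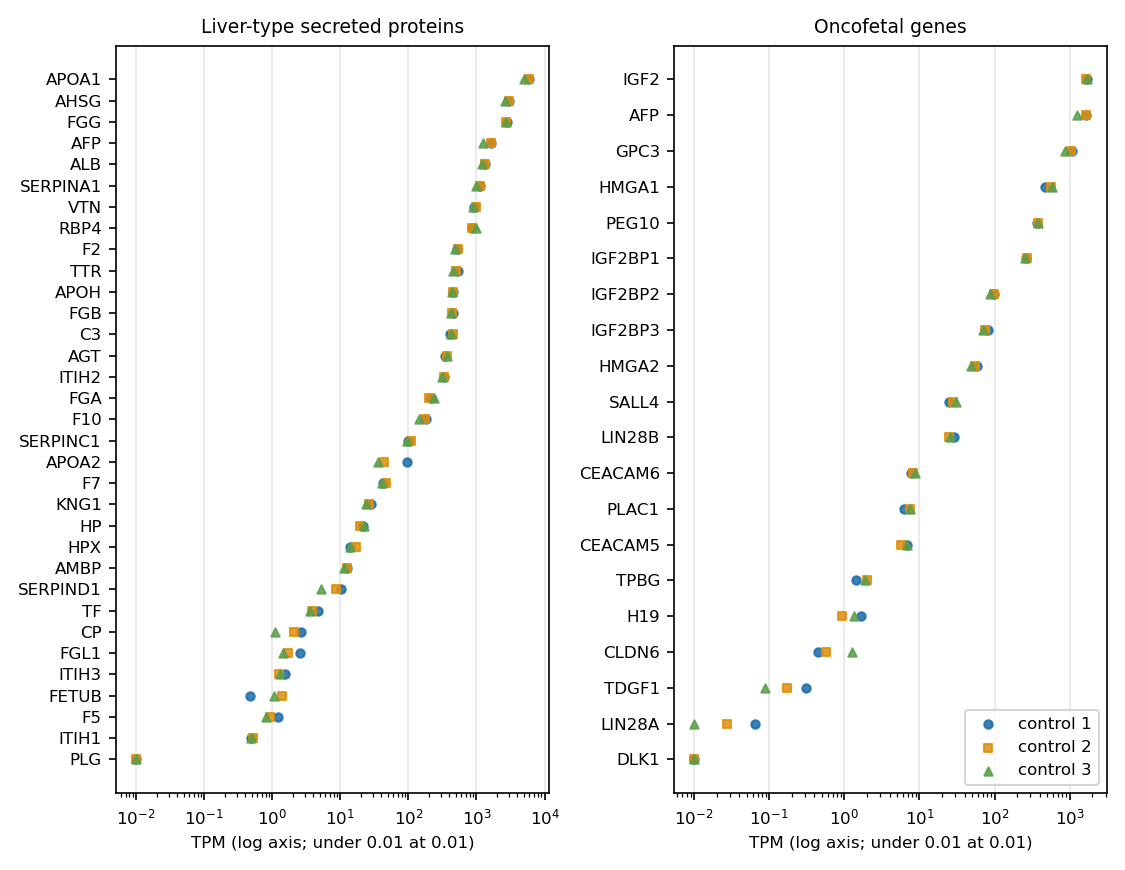
TPM of each liver-type secreted protein gene (left) and each oncofetal gene (right) in the 3 control libraries, on log axes, with values under 0.01 drawn at 0.01. Levels run from APOA1 at 5606 TPM to PLG with no count, and control 1 lies apart from the other libraries for APOA2.

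Factors that set the identity of the gut epithelium were present in number. Of 23, 20 reached 1 TPM in all 3 libraries, with a median of 30.9 TPM. After HNF4A, the highest were FOXA1, a pioneer factor of endoderm, at 304 ± 31.7 TPM, KLF5, a zinc finger factor of dividing crypt cells, at 263 ± 21.7 TPM, and CDX2, the homeobox gene that specifies intestine, at 167 ± 10.6 TPM. SOX9, a crypt factor, and GATA6 each had a mean of 139 TPM. GATA6 had 112, 150 and 154 TPM, with control 1 lowest. The paralogs of these genes differed widely in level. CDX1 had 2, 1 and 0 counts, and HNF4G, which marks the villus, stood at 7.59 ± 2.22 TPM, so HNF4A was 79.0 ± 22 times higher. HNF4A depends on the length used, with a mean of 305 TPM by its longest GENCODE 29 transcript against 569 TPM by the listed length.

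Structural genes of the brush border, the layer of microvilli, were nearly all present. Of 16, 15 reached 1 TPM in all 3 libraries, with a median of 51.5 TPM. After VIL1 came EZR (ezrin, which ties actin to the membrane) at 306 ± 6.63 TPM, CDHR5, a cadherin between microvillus tips, at 259 ± 33.7 TPM, MISP, an actin bundler listed as C19orf21 in the table, at 120 ± 12.9 TPM, and the scaffold USH1C at 115 ± 2.18 TPM. CDHR2, the partner of CDHR5 at the tips, was far lower at 2.83, 3.46 and 2.69 TPM. It was named for its role after its level was seen. TMIGD1 had 2, 5 and 1 counts.

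Enzymes of the brush border ranged more widely than its structure. Of 18, 11 (61.1%) reached 1 TPM in all 3 libraries, near the 57.4% of all coding genes. Their median was 3.11 TPM, under the 4.21 TPM of all coding genes. DPP4, a dipeptidyl peptidase, had 351, 321 and 337 TPM and MEP1A, the metalloprotease meprin alpha, 159, 161 and 146 TPM. SI, sucrase-isomaltase, had 56.1 ± 5.34 TPM, ALPI, intestinal alkaline phosphatase, 48.0, 49.0 and 54.7 TPM, and LCT, lactase, 14.3, 13.7 and 11.5 TPM. SI was above ALPI in controls 1 and 2 and below it in control 3, so this pair did not differ beyond the spread, while the other 3 enzymes kept their order in each library. MEP1B, the sister of MEP1A, and TMPRSS15, the enteropeptidase that starts pancreatic digestion in the duodenum, had no count, and MME, neprilysin, had 5, 2 and 6 counts.

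Carriers for sugars, amino acids and metals reached 1 TPM in all 3 libraries for 23 of 28 genes, with a median of 20.5 TPM. SLC3A2, the heavy chain of amino acid exchangers, had 398, 397 and 396 TPM and was among the least variable genes measured. SLC2A1, the widely expressed glucose carrier GLUT1, had 222, 231 and 272 TPM, and SLC7A5, a light chain that pairs with SLC3A2, had 147, 176 and 219 TPM. Both were highest in control 3. SLC40A1, the iron exporter ferroportin, had 150 ± 14.9 TPM, and ABCC2, an apical efflux pump, 93.0 ± 5.77 TPM. The sodium-glucose carrier SLC5A1 of the adult small intestine had 2, 3 and 4 counts, and the sterol pumps ABCG5 and ABCG8 had 1 and 2 counts in all. SLC2A2, the basolateral carrier GLUT2, had 2.61 ± 0.289 TPM, and SLC2A1 stood 92.8 ± 7.87 times above it.

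Fat handling was led by apolipoproteins. Of 24 genes, 18 reached 1 TPM in all 3 libraries, with a median of 49.7 TPM. The list took 1.44 ± 0.174% of TPM, most of it from APOE and APOA1. APOA1 is also counted in the liver-type list, so the shares of both lists cannot be added. APOC3, an inhibitor of lipoprotein lipase, had 553, 620 and 460 TPM and lies 2.68 kb from APOA1, which was 10.3 ± 0.621 times higher. APOB, the backbone of chylomicrons, had 281, 325 and 307 TPM. APOA4, which shares that cluster and is known from the adult enterocyte, had 15.3, 19.1 and 7.59 TPM. Control 3 was the lowest for APOC3 and APOA4 and not for APOB.

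Among binding proteins, RBP2 for retinol had 284 ± 31.8 TPM and FABP1, the liver-type fatty acid binder, had 286, 235 and 169 TPM. FABP2, the intestinal form, had 1, 2 and 2 counts. DGAT1, the last step of triglyceride synthesis, had 217 ± 31.7 TPM, whereas MOGAT2, the enteric acyltransferase before it, had 0.733 ± 0.105 TPM. APOC2 had 0, 1 and 0 counts and CIDEB none. APOC2 shares its strand and span with APOC4 in the table, and the effect of such overlap on its count was not tested.

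Genes that lean to the small intestine and to the colon were counted separately, with lists that partly repeat the genes above. Both lists were made with earlier results of these data known, so their counts are a description only. Of 13 small intestinal genes, 9 reached 1 TPM in all 3 libraries (median 13.2 TPM, sum 547, 522 and 477 TPM). Of 13 colonic genes, 5 did (median 0.600 TPM, sum 91.6, 94.9 and 90.9 TPM). The colonic list was led by CA2, carbonic anhydrase 2, at 37.5 ± 1.75 TPM, GUCA2A, the precursor of guanylin, at 32.4 ± 3.37 TPM and SLC26A3, the chloride exchanger lost in congenital chloride diarrhoea, at 9.84 ± 2.14 TPM. MS4A12 had no count, AQP8 0, 0 and 2 counts and CA1 1, 15 and 10 counts. In the other list CYP3A4, the main drug-oxidising enzyme of the adult gut, had no count.

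Crypt and Wnt genes reached 1 TPM in all 3 libraries for 25 of 28 members, with a median of 25.2 TPM. SOX4, a factor of progenitors, had 274, 300 and 239 TPM. MYC, the growth regulator downstream of Wnt, had 168, 197 and 212 TPM, and EPHB2, a receptor that positions crypt cells, had 112, 118 and 137 TPM. ASCL2, the master factor of intestinal stem cells, had 80.3, 85.2 and 93.2 TPM, and SP5, a direct Wnt target, 59.8, 75.7 and 85.5 TPM. Control 3 was highest for MYC, EPHB2, ASCL2 and SP5 but lowest for SOX4. LGR5, the R-spondin receptor of crypt stem cells, and AXIN2, a feedback inhibitor of Wnt, were named for their role after their levels were seen, at 13.2 ± 0.861 and 11.5 ± 1.57 TPM. LGR4, the relative of LGR5 with wider expression, stood at 101 ± 4.92 TPM. OLFM4, which marks the same stem cells in human crypts, had 2, 1 and 1 counts and HOPX 0, 1 and 0.

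**Figure D3:**
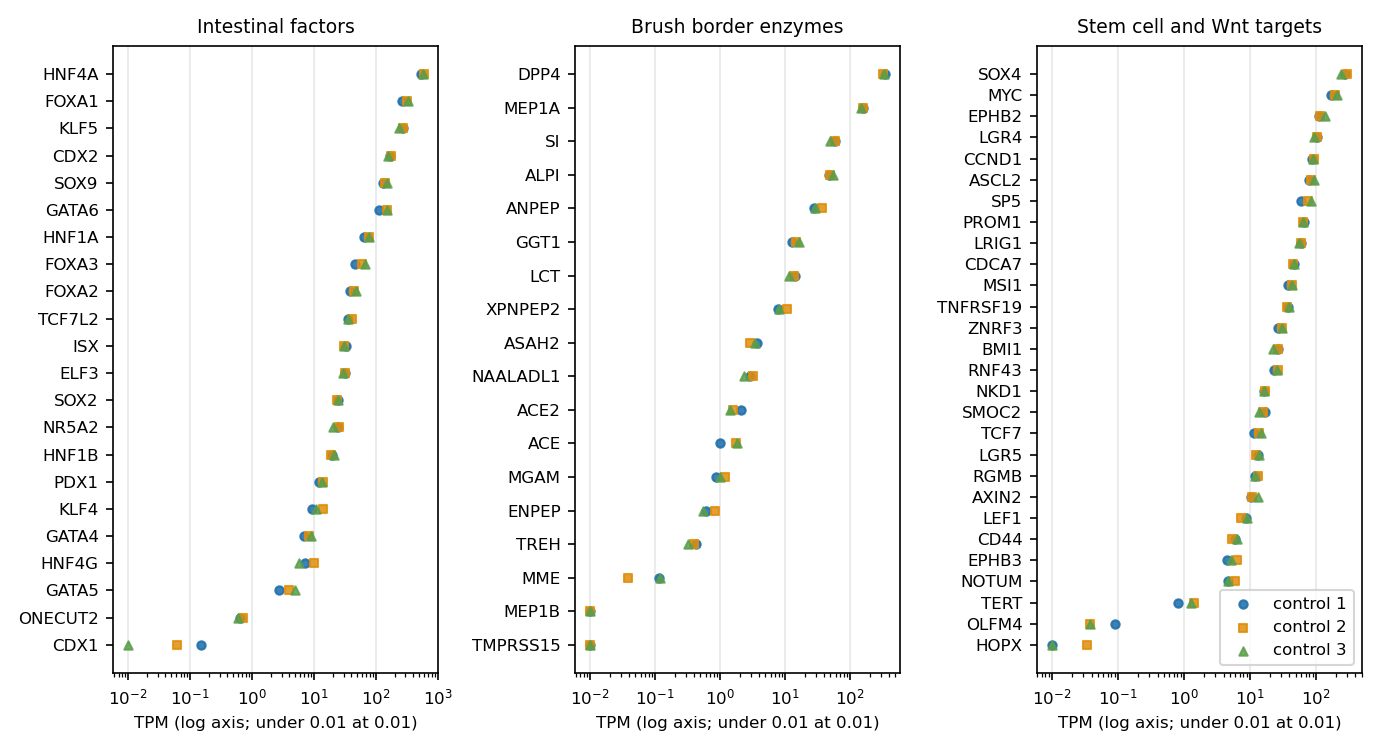
TPM of 22 intestinal factors and of each brush border enzyme and stem cell or Wnt gene in the 3 control libraries, on log axes, with values under 0.01 drawn at 0.01. Each panel falls over several powers of 10, with HNF4A, DPP4 and SOX4 at the top and CDX1, TMPRSS15 and HOPX at the bottom.

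Secretory lineages were represented unevenly. Of 11 goblet cell genes, 7 (63.6%) reached 1 TPM in all 3 libraries, against 57.4% of all protein-coding genes. They were led by AGR2, a disulfide isomerase for mucin folding, at 1038, 858 and 847 TPM and TFF3, a trefoil peptide, at 398, 451 and 420 TPM. REG4 had 93.9 ± 6.45 TPM. MUC2, the gel mucin that defines the goblet cell, had 3, 18 and 17 counts (0.163 ± 0.102 TPM), and SPDEF, the factor of goblet maturation, 0.908 ± 0.205 TPM. Of 11 mucins, 3 reached 1 TPM in all 3 libraries, with the membrane mucin MUC13 highest at 28.1 ± 2.29 TPM. Among 6 Paneth cell genes, LYZ (lysozyme) had 30.4 ± 2.19 TPM and PLA2G2A 29.9 ± 2.19 TPM, while the defensins DEFA5 and DEFA6 had at most 5 counts in a library. Of 12 enteroendocrine genes, 1 reached 1 TPM in all 3 libraries, the granule protein CHGB at 6.73 ± 0.977 TPM, and of 8 tuft cell genes 1 did, AVIL at 1.90 ± 0.243 TPM. NEUROD1, SST, DCLK1, IL25 and GNAT3 had no count.

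**Figure D4:**
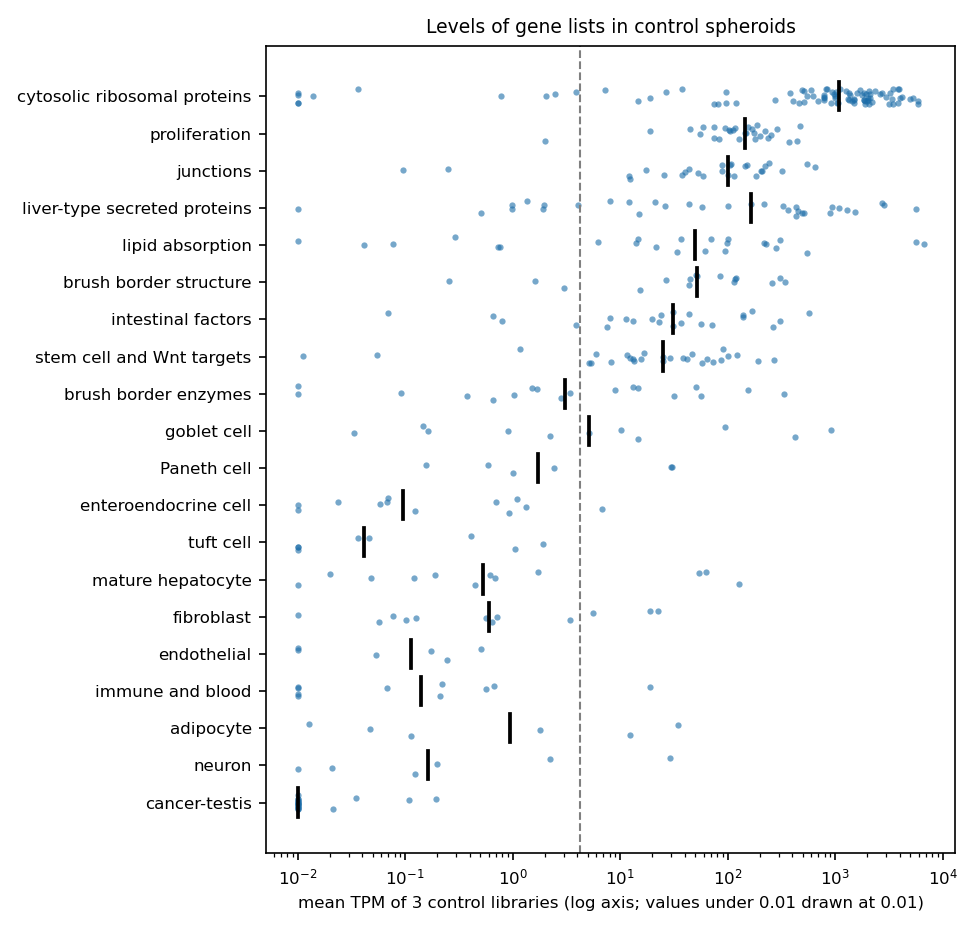
Mean TPM of the 3 control libraries for each member of 20 gene lists, on a log axis, with values under 0.01 drawn at 0.01. Each point is a gene, the black bar is the median of its list and the dashed line is the median of all protein-coding genes, 4.21 TPM. The medians of the ribosomal, proliferation, junction and liver-type lists lie to the right of the line. Medians were under 1 TPM for the mature hepatocyte, fibroblast, adipocyte, enteroendocrine, tuft, endothelial, immune and blood, neuron and cancer-testis lists.

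Cell junction genes had a median of 101 TPM, and 25 of 27 reached 1 TPM in all 3 libraries. After CDH1 the highest were JUP, plakoglobin of desmosomes, at 445, 564 and 620 TPM, CTNNA1, alpha-catenin, at 322 ± 13.9 TPM, and CLDN4, a sealing claudin, at 245 ± 11.7 TPM. CTNNB1, beta-catenin, which joins adhesion to Wnt signalling, was named for its role after its level was seen, at 146 ± 3.02 TPM. The exceptions were the gastric claudin CLDN18 at 0.252 ± 0.0924 TPM and CDH2, the N-cadherin of mesenchymal cells, with 2, 1 and 8 counts. Keratins were those of simple epithelium, KRT8 at 2146, 2071 and 2337 TPM, KRT19 at 1489 ± 60.5 TPM and KRT18 at 315 ± 26.9 TPM. KRT8 was 6.95 ± 0.189 times KRT18, its obligate partner in filaments, and the spans of the pair overlap in the table. The keratins of stratified epithelium KRT14 and KRT6A had no count.

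All 25 genes of matrix and adhesion reached 1 TPM in all 3 libraries. FN1, fibronectin, had 2073, 2247 and 2383 TPM and ranked 31. LAMB3, LAMB1 and LAMC1, chains of laminins, had 318 ± 11.5, 202 ± 7.40 and 173 ± 3.09 TPM, and LAMA5 had 149, 209 and 223 TPM. ITGB1, the shared beta chain of many laminin and collagen receptors, had 235 ± 14.3 TPM. HSPG2, the basement membrane proteoglycan perlecan, had 59.2, 91.2 and 105 TPM. Control 1 was lowest for FN1, LAMA5 and HSPG2.

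All 29 proliferation genes reached 1 TPM in all 3 libraries. Their median was 144 TPM, and their share of TPM was 0.472 ± 0.00834%. MCM7, a subunit of the replicative helicase, had 458, 469 and 481 TPM, PCNA, the sliding clamp of replication, 437, 459 and 426 TPM, and UBE2C, which ends mitosis, 377, 359 and 388 TPM. No library was the highest for all 3 genes. MKI67, the widely used marker of dividing cells, was named for its role after its level was seen, at 60.9, 66.0 and 49.4 TPM. Lowest was CCNE2 at 2.00 ± 0.113 TPM. Of 16 genes of cell cycle arrest and damage response, 15 reached 1 TPM. BAX, a death effector, had 176 ± 8.59 TPM and CDKN1B, the inhibitor p27, 148 ± 3.55 TPM. CDKN1A, the inhibitor p21, stood at 20.9 ± 2.94 TPM, and the death receptor gene FAS had 0, 4 and 0 counts.

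Receptor tyrosine kinases, through which growth factors act, reached 1 TPM in all 3 libraries for 15 of 18 genes. FGFR4, a fibroblast growth factor receptor of gut and liver, was highest at 211, 248 and 273 TPM, followed by DDR1, a collagen receptor, at 207 ± 21.1 TPM, ERBB3 at 177 ± 18.0 TPM and ERBB2 at 123 ± 14.1 TPM. EGFR had 28.6 ± 2.33 TPM, and FGFR4 was 8.57 ± 1.42 times higher. KIT, RET and ERBB4 were under 1 TPM. Cancer-testis genes, which germ cells and some tumours express, stayed under 1 TPM for all 20 members, and 16 had no count, with a highest mean of 0.196 TPM.

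Glycolytic enzymes were high. GAPDH had 2028, 2227 and 2338 TPM, ENO1 (enolase) 2008, 2056 and 2288 TPM and TPI1 1489, 1457 and 1450 TPM. LDHA, which makes lactate, had 795 ± 31.2 TPM. Control 3 was the highest for GAPDH and ENO1 and the lowest for TPI1. CA9, the carbonic anhydrase used to mark low oxygen, had 1, 4 and 0 counts, and ALDOA, an aldolase, had 999 ± 53.8 TPM. Nuclear subunits of oxidative phosphorylation had a median of 193 TPM, led by ATP5B of the ATP synthase at 1826 ± 59.1 TPM. All 14 genes of cholesterol synthesis and uptake reached 1 TPM in all 3 libraries, led by DHCR7, the last step of the pathway, at 693, 741 and 862 TPM.

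Drug-handling enzymes were split. Of 32, 22 (68.8%) reached 1 TPM in all 3 libraries, against 57.4% of all protein-coding genes. After GSTP1 came CES1, a carboxylesterase of liver, at 494 ± 18.5 TPM, and the glutathione transferases GSTA1 at 321 ± 35.4 TPM and GSTA2 at 292 ± 44.1 TPM, which are close paralogs whose reads may be shared. Apart from CYP3A4, CYP3A7, its fetal form, had 0, 4 and 2 counts. Genes of proteins that handle the agents of the study were present in the control spheroids. All 18 genes of antifolate handling reached 1 TPM in all 3 libraries, including SLC19A1, the carrier of reduced folate and methotrexate, at 47.4, 57.9 and 68.5 TPM, which was named for its role. Of 10 proteins known to bind lactoferrin, 9 did, led by NCL, nucleolin, at 651 ± 51.2 TPM. LTF itself had 1, 17 and 11 counts, and ITLN1, known as an intestinal lactoferrin receptor, 21, 16 and 14 counts.

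By gene class, nuclear protein-coding genes took 91.6, 90.5 and 88.8% of TPM, the remainder being largely mitochondrial. Pseudogenes took 1.10 ± 0.0264%, with 533 of 13886 (3.84%) at 1 TPM in all 3 libraries. The highest were RPS2P46 at 2043 ± 209 TPM, RPL41P1 at 957 ± 158 TPM and RPS2P5 at 634 ± 190 TPM, which are copies of ribosomal protein genes that are themselves in the top list, and how reads were split between such copies is not known. Antisense genes took 0.573 ± 0.0960%, processed transcripts 0.527 ± 0.0230% and lincRNA genes 0.450 ± 0.0298%. Among the processed transcripts are POLDIP2 at 484 ± 13.7 TPM and SPON1 at 217 ± 5.55 TPM, which are known as genes of proteins. The table lists RN7SL1, the RNA of the signal recognition particle, as antisense, at 2566, 1850 and 937 TPM. ZFAS1, a host of small nucleolar RNAs, followed at 437 ± 69.4 TPM. Among lincRNA genes LINC00657, the RNA also known as NORAD, led at 303 ± 35.0 TPM. Whether the counts keep strand is unknown here, so antisense genes and their partners cannot be told apart.

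Of 20 long non-coding RNAs known from epithelial tumours, 14 reached 1 TPM in all 3 libraries. After SNHG8 came DANCR at 222 ± 11.7 TPM, GAS5, which is known to rise when growth stops, at 173, 143 and 112 TPM, and SNHG5 at 161, 142 and 115 TPM. HULC, named for its high level in liver cancer, had 86.0, 66.6 and 57.8 TPM. Control 1 was highest and control 3 lowest for GAS5, SNHG5 and HULC. MALAT1, a nuclear RNA that is often among the most abundant, had 54.1 ± 6.01 TPM. MEG3 had 1, 4 and 1 counts.

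The 3 libraries differed little gene by gene. Over 8832 genes of at least 300 bases and 10 TPM the median coefficient of variation was 7.35%, with quartiles of 4.58 and 11%. The relative SD expected from counting error alone, computed from the counts, had a median of 2.98%. It is not estimated from 3 values, so these medians are not directly comparable. Over only 2 libraries the median coefficient of variation was 4.89% without control 1, 7.75% without control 2 and 5.79% without control 3. Values over 2 libraries are not directly comparable with that over 3. The biological coefficient of variation from edgeR was 9.48%. The highest library was at least 1.5 times the lowest for 270 of these genes (3.06%) and at least 2 times for 32 (0.362%). EIF3D, a subunit of an initiation factor, varied least, at 309 TPM in every library, followed by NFKB1, a subunit of the factor NF-kB, at 49.0 ± 0.0534 TPM. LGALS14, a placental galectin, varied most, at 18.9, 25.1 and 2.00 TPM.

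Genes that set 1 library apart were found for control 1 and control 3. With a factor of 1.7, chosen after the levels were seen, 17 genes were higher in control 1 than in both others and 8 lower. Among the first were RPL30 at 191, 95.0 and 77.0 TPM, COX6A1 at 107, 55.7 and 41.8 TPM and APOA2 at 95.3, 44.0 and 36.1 TPM. Of those 17, 8 share a span on their strand with another gene, as do 0 of the 8 that were lower in control 1 and 23.2% of all protein-coding genes. In control 3, 12 genes were lower than in both others and none higher by that factor. CKB, a creatine kinase, had 1256, 1384 and 687 TPM, SLC6A8, the creatine carrier, 13.5, 16.2 and 5.08 TPM, and ZG16, a lectin of goblet cell granules, 19.8, 17.8 and 6.0 TPM. DDIT4 and BNIP3, both known to respond to low oxygen, had 31.7, 28.6 and 11.9 TPM and 50.3, 46.8 and 26.9 TPM. The sum of the 18 glycolytic and low-oxygen genes, led by GAPDH and ENO1, was highest in control 3, at 8956, 9217 and 9717 TPM. The cause of these differences was not tested. In control 2 by the same factor 1 gene was higher, PRHOXNB, and none lower.

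Of 6 adipocyte genes, 2 reached 1 TPM in all 3 libraries, the lipid droplet gene CIDEC at 34.4 ± 4.42 TPM and the lipase gene LIPE at 10.9, 13.4 and 12.9 TPM, and LIPE was lowest in control 1. The list sum was 54.3, 49.5 and 42.5 TPM, most of it CIDEC in each library. The other 4 were near 0 outside control 1. FABP4, the fatty acid binder of fat cells, had 37, 1 and 1 counts, PLIN1, a lipid droplet coat, 6, 1 and 1, ADIPOQ, adiponectin, 5, 0 and 0, and LEP, leptin, 1, 0 and 0. Without control 1 FABP4 averaged 0.117 TPM, against 1.79 TPM over all 3. CD36, a fatty acid receptor of the fat-handling list that was chosen after its values were seen, had 36, 1 and 5 counts. The source of these counts was not tested.

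**Figure D5:**
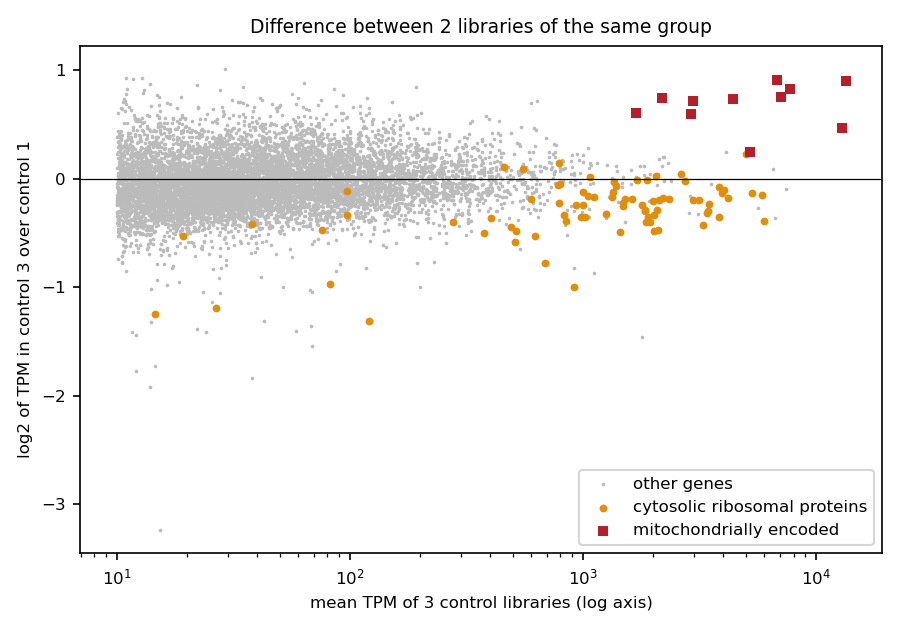
Log2 of TPM in control 3 over control 1 against mean TPM, on a log axis, for genes of at least 10 TPM and 300 bases. Mitochondrially encoded genes lie above 0 and most cytosolic ribosomal proteins lie below it, and the gray cloud of other genes narrows as the level rises.

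Some genes of large complexes were low beside their partners, and many of these share a span on their strand with another coding gene in the table. Among 12 nuclear oxidative phosphorylation subunits under 19.3 TPM, 10 do (83.3%), against 8 of the other 67 (11.9%) and 12% of all protein-coding genes. For ribosomal proteins the numbers were 7 of 19 under 110 TPM (36.8%) and 5 of 71 above (7.04%), and for proteasome subunits 5 of 8 under 11.3 TPM (62.5%) and 2 of 36 above (5.56%). The ribosomal family was taken by symbol pattern, so its low members include related genes such as RPS27L, at 37.8 TPM. SDHD, an anchor of succinate dehydrogenase, had no count and shares its span with several genes. RPS15A, a ribosomal protein, had 40.6, 21.8 and 17.8 TPM, far under the family median. Whether counts were dropped where spans overlap was not tested, and levels of such genes are uncertain.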

How the data were processed

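The table holds whole-number counts per gene for 12 libraries, deposited by the authors and not normalized, with gene identifiers, classes, lengths and hg19 coordinates. Per the submitters' processing notes, CASAVA, STAR and DESeq2 were used with hg19; not given in the sources used here are their versions and roles, the annotation, the counting program and the use of strand. Each count was divided by the listed gene length in kilobases and scaled to 1000000 per library (TPM). No test was made, since the 3 control libraries are 1 group. The biological coefficient of variation came from edgeR 4.0.16 (R 4.3.3) with TMM factors on 14071 genes, and the code for it and for TPM was tested on simulated data. Count ratios between libraries differed by more than sampling noise (chi-square over degrees of freedom of 9.98 to 22.5), so no library is a copy of another. Pearson's r of log2(TPM + 1) across 14240 genes, which are not independent replicates, was 0.9868 to 0.9916.

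The gene lists (36 by hand, 10 by symbol pattern) and the choice of control libraries were made with earlier results of these data known. In the lists, 586 entries were matched by identifier, 6 by symbol and 1 not. Named genes were the 30 most abundant nuclear coding genes, the mitochondrial protein genes, up to 3 per gene class, up to 8 of the highest and 6 under 1 TPM per list, and the most and least variable genes. Genes outside this rule were named for their role after their values were seen. Alternatives were other denominators, length, filters and leaving out each library. Sequences and promoter windows are from RefSeq (GRCh38.p14). Some members of the lists are counted in them but not reported here by name.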

Additional observations from a re-analysis of the deposited data

How the results depend on the processing

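Without scaling by length (CPM), the shares were 96.0% for nuclear coding genes, 2.61% mitochondrial, 0.393% pseudogenes, 0.209% antisense, 0.288% lincRNA, 0.466% processed transcripts, 5.57% and 19.3% for the top 10 and top 100 genes, 8.29% ribosomal proteins, 1.53% liver-type, 0.882% fat handling and 0.511% proliferation genes. Without mitochondrial genes they were 97.1% nuclear coding, 1.19% pseudogenes, 0.483% lincRNA, 0.566% processed transcripts, 6.09% top 10, 25.0% top 100, 14.5% ribosomal proteins, 2.22% liver-type and 0.507% proliferation. With coding genes only they were 92.8% nuclear coding, 29.6% top 100 and 0.485% proliferation, and without genes under 300 bases pseudogenes took 1.02%. With the longest GENCODE 29 transcript as length, chosen after seeing the data and matched for 94.1% of genes, pseudogenes took 1.46%, the top 100 genes 29.6% and proliferation 0.506%. The top 30 nuclear coding genes shared 18 members with the top 30 by CPM and 27 with that by GENCODE length. Of 786 gene levels, 454 moved by over 1.5 times in CPM, and 52 did so with GENCODE lengths (6 of them higher), among them HNF4A at 305, TPT1 at 1233, DGAT1 at 121, EPHB2 at 54.4, UBE2C at 614, BNIP3 at 22.4 and HOXB7 at 75.1 TPM. Levels and ratios between genes therefore depend on the length used. Without control 1, 5 levels moved that far, FABP4 and 4 others under 10 TPM, and without control 2 or control 3, 1 histone gene each. Leaving out each library in turn gave a median coefficient of variation of 4.89 to 7.75% and a biological one of 7.23 to 11.9%, lowest without control 1 in both cases. Genes at 1 TPM ran from 10222 at a limit of 5 TPM to 14635 at 0.5 TPM. The cause of the changes with the GENCODE length or a library left out was not tested. Depth limits genes near 1 TPM, where a library holds few counts. No paired analysis was possible because the results come from no test and 1 group is described.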

Other observations

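Developmental and other gene families were counted in the same way. Of 39 HOX genes, which set position along the body axis, 21 reached 1 TPM in all 3 libraries. This share of 53.8% was near the 57.4% of all protein-coding genes. HOXB7 at 25.3 ± 3.85 TPM, HOXA7 at 15.4 ± 3.17 TPM and HOXC13 at 13.7 ± 1.35 TPM were the highest. Of 43 collagen chains, 16 (37.2%) reached 1 TPM in all 3 libraries. They were led by COL5A2 at 137 ± 4.00 TPM, COL2A1, known from cartilage, at 136 ± 14.1 TPM and COL6A1 at 101 ± 9.02 TPM. The basement membrane chain COL4A1 had 1.49 ± 0.140 TPM.

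Of 86 histone genes, 46 (53.5%) reached 1 TPM in all 3 libraries, near the 57.4% of all protein-coding genes. The highest were the replication-independent H1F0 at 834 ± 123 TPM and H2AFX at 524, 636 and 718 TPM. Of 485 zinc finger genes, 341 (70.3%) reached 1 TPM in all 3 libraries, with a median of 3.72 TPM, near that of all coding genes. Of 376 olfactory receptor genes none did and 362 had no count.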
